A study of Papio anubis and Macaca fascicularis and Castor canadensis with 48 samples.

Results

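The genes described here are 10 genes of the NRF2 pathway and of antioxidant defence, chosen by their mouse Ensembl IDs and not by their values. They are Nfe2l2 (ENSMUSG00000015839), Keap1 (ENSMUSG00000003308), Nqo1 (ENSMUSG00000003849), Hmox1 (ENSMUSG00000005413), Gclc (ENSMUSG00000032350), Gclm (ENSMUSG00000028124), Sod1 (ENSMUSG00000022982), Sod2 (ENSMUSG00000006818), Cat (ENSMUSG00000027187) and Gpx1 (ENSMUSG00000063856). All 10 were present among the 16816 genes of the deposited count table, and all 10 passed the filter on low counts in every comparison. Bulk RNA sequencing of brain, cerebellum, kidney and liver had been deposited for a study of gene expression and lifespan across mammals, with 48 libraries from 8 species.

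Nfe2l2 encodes NRF2, a transcription factor that switches on genes of detoxification and antioxidant defence. In resting cells the adaptor KEAP1 binds NRF2 and hands it to the ubiquitin ligase that marks it for degradation, and oxidants or electrophiles that modify KEAP1 let NRF2 accumulate and bind antioxidant response elements. Classical targets are the quinone reductase Nqo1, the haem oxygenase Hmox1 and the 2 subunits of glutamate-cysteine ligase, Gclc and Gclm, which carry out the rate-limiting step of glutathione synthesis. The remaining genes encode enzymes that remove reactive oxygen directly. Sod1 and Sod2 encode the cytosolic and mitochondrial superoxide dismutases, Cat the peroxisomal catalase, and Gpx1 a selenium-containing glutathione peroxidase, and liver is known for high levels of several of them.

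All animals were labelled as wild-type male adults, and no library carried a treatment. Baboon (Papio anubis) gave 6 brain, 6 kidney and 6 liver libraries. The long-tailed macaque, Macaca fascicularis, gave 6 cerebellum, 5 kidney and 6 liver libraries, and the beaver Castor canadensis gave 2 brain and 2 liver libraries. These 39 libraries came from a primate research center. The other 9 came from an earlier collection: 2 livers of chipmunk (Tamias sibiricus), 2 livers of sugar glider (Petaurus breviceps), 1 kidney and 1 liver of American black bear (Ursus americanus), 1 brain and 1 liver of white-footed mouse (Peromyscus leucopus) and 1 liver of tube-nosed bat (Murina leucogaster). Each species thus belonged to a single collection, so species and collection cannot be told apart beyond comparisons within a collection. The labels do not say that replicates came from separate animals, so the p-values measure the spread between these libraries, which may in part be technical. The labelled organs were not checked against marker genes, because the rows carry mouse Ensembl IDs only and no table used here pairs other IDs with symbols.

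Total counts ranged from 6.33 M in the white-footed mouse brain to 26.8 M (M, 1000000 counts) in a macaque liver. The 10 genes together held between 0.0825% of the counts in a baboon brain and 0.980% in a beaver liver. Levels are given as CPM, counts scaled to 1000000 counts in the library, with the SD over libraries. Changes are log2 fold changes with their standard error on the TMM scale, which sets the typical gene near no change between organs. It did so less well for the liver of a species against the other livers, where the medians of all genes are given. The choice of scale matters between organs. The mean TMM factor was 0.517 in baboon liver against 1.38 in baboon kidney and 1.40 in baboon brain, 0.544 in macaque liver against 1.29 in kidney and 1.49 in cerebellum, and 0.621 in beaver liver against 1.61 in beaver brain. With total counts as the only scaling, the median change of all genes moved from 0.06 to 1.47 for baboon kidney against liver, from 0.05 to 1.49 for baboon brain against liver, from 0.02 to 1.27 for macaque kidney against liver, from 0.06 to 1.51 for macaque cerebellum against liver and from 0.12 to 1.49 for beaver brain against liver. The share of called genes that were higher moved from 53.1% to 90.8%, from 51.4% to 81.4%, from 51.9% to 89.9%, from 51.4% to 80.1% and from 54.6% to 85.2% in the same order. A direction against liver is therefore relative to the typical gene, and each gene whose direction turned with total counts is named. As these are bulk samples, fewer cells of a type and less RNA per cell cannot be told apart. Levels of different genes were not ranked against each other, as gene lengths were not used here.

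**Figure D1:**
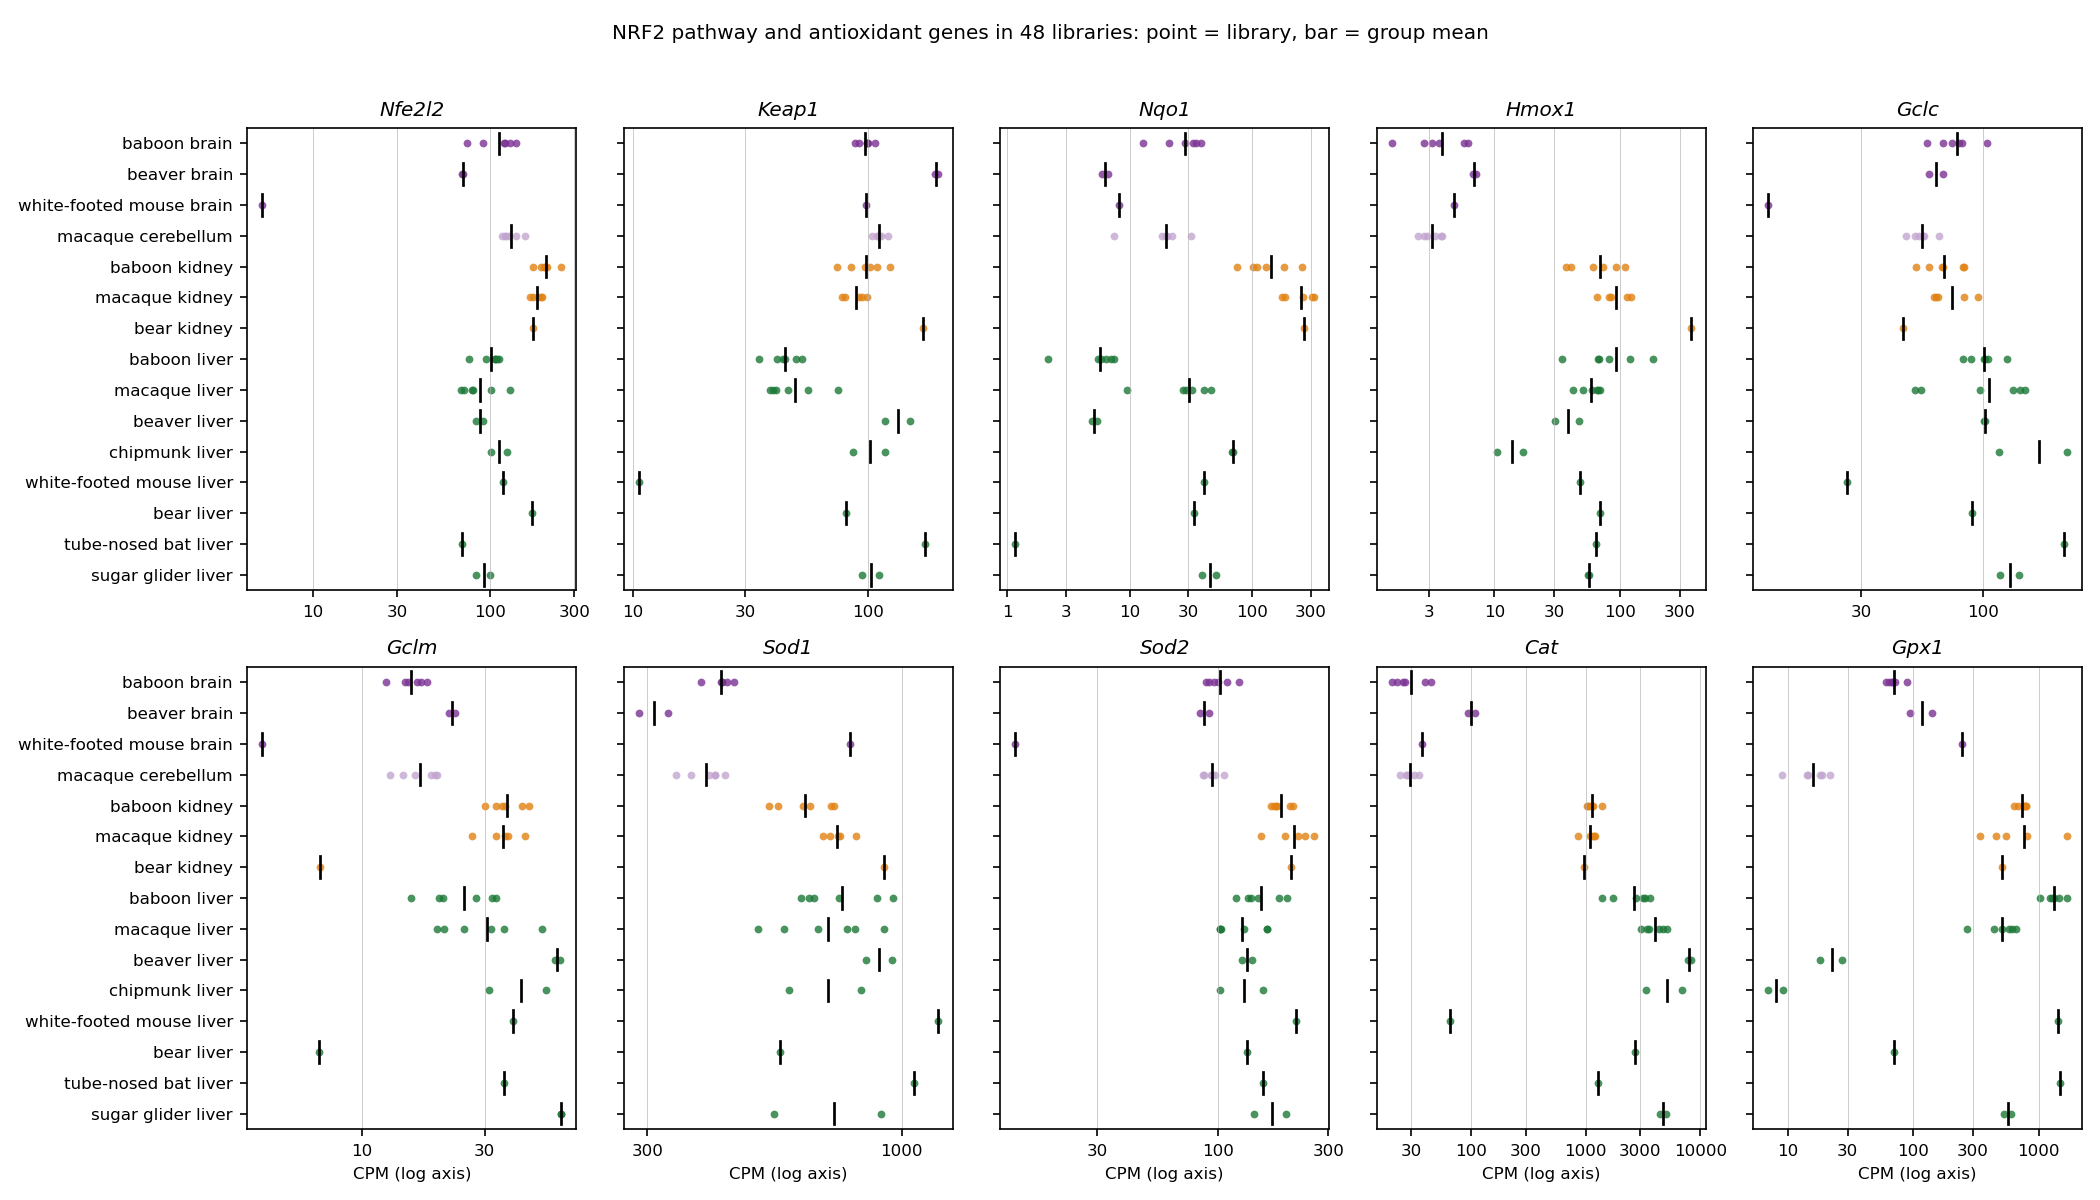
Level of each of the 10 genes in all 48 libraries, 1 panel per gene, with CPM on a log axis and the 15 species-and-organ groups as rows. Points are libraries, coloured by organ (dark purple brain, light purple cerebellum, orange kidney, green liver), and black bars are group means. Sod1 kept within 309 to 1188 CPM over the group means, while Cat and Gpx1 ran from 29.1 to 8014 and from 8.02 to 1491 CPM.

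Relative to the typical gene, most of the 10 genes were called lower in kidney and neural tissue than in liver, and Nqo1 was called higher in the kidney of both primates. For kidney most of these calls did not hold with total counts as the only scaling. Over all comparisons of the report, leaving out 52 values never called under any setting, total counts reversed 19 values, lost 18 calls and gained 11. RLE factors, upper-quartile factors and DESeq2 reversed no value, lost 2, 4 and 1 calls and gained 5, 1 and 9. In baboon kidney against liver, 66.5% of 13890 tested genes were called at an adjusted p under 0.05, and of the 10 genes 1 was called higher and 9 lower, with a median change of -1.41 against 0.06 for all genes. In macaque kidney against liver, 63.1% of 13927 genes were called, and 1 of the 10 was higher, 7 lower and 2 not called, with a median of -0.63 against 0.02. For baboon brain against liver 82.4% of genes were called, and 1 of the 10 was higher and 9 lower, with a median of -2.08 against 0.05. For macaque cerebellum against liver 81.9% were called, and 9 of the 10 were lower and 1 was not called, with a median of -2.30 against 0.06. For beaver brain against liver 64.4% of 13309 genes were called, and 1 of the 10 was higher and 9 lower, with a median of -2.02 against 0.12. Most genes differed between organs, so a call alone says little. The share called among the 10 lay above that of all genes in each of these comparisons, a difference that was not tested. Of all genes, 31.2%, 30.4%, 40.0%, 39.8% and 29.3% were called lower, in the order above. The sizes and directions below carry the description. In kidney against liver, 4 of the 10 baboon calls (Nqo1, Gclc, Cat and Gpx1) and 2 of the 8 macaque calls (Nqo1 and Cat) kept direction and side of the threshold under RLE factors, upper-quartile factors, total counts and DESeq2. With total counts, 5 of the 10 genes were called higher and 3 lower in baboon kidney, and 5 higher and 1 lower in macaque kidney, where 8 of the 10 values lay above 0. Against liver, 8 of the 10 calls held under these 4 settings in baboon brain, 7 of 9 in macaque cerebellum and 7 of 10 in beaver brain.

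Neural tissue against kidney was a comparison that the scaling moved little in baboon, where the median of all genes was -0.02 with TMM and 0.00 with total counts. In baboon brain against kidney 77.3% of genes were called, and 8 of the 10 genes were lower and 2, Keap1 and Gclc, were not called. The share called among the 10 was thus near that of all genes, of which 39.1% were called lower. In macaque cerebellum against kidney 75.8% were called and 37.8% called lower, and 9 of the 10 were lower, all but Keap1. The median of all genes there was 0.02 with TMM and 0.23 with total counts. All 8 baboon calls kept their direction and their side of the threshold under RLE factors, upper-quartile factors, total counts and DESeq2, and so did 8 of the 9 macaque calls, Gclc being the exception.

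Nfe2l2 was lower in neural tissue than in kidney in both primates. Nfe2l2 was at 207 ± 25.6 CPM (SD, n = 6) in baboon kidney, 113 ± 25.1 in brain and 101 ± 13.5 in liver. In macaque it was at 185 ± 12.3 CPM (n = 5) in kidney, 131 ± 15.1 (n = 6) in cerebellum and 88.5 ± 23.4 (n = 6) in liver. Kidney libraries of both primates lay above all neural libraries of the same species, with 176 to 254 CPM against 74.6 to 141 in baboon and 169 to 197 against 118 to 158 in macaque. Nfe2l2 was lower in baboon brain than in kidney by a log2 change of -0.90 ± 0.13 (adjusted p = 5.75e-06) and in macaque cerebellum than in kidney by -0.70 ± 0.15 (adjusted p = 0.000409). Against liver its direction depended on the scale. In baboon kidney against liver the change was -0.38 ± 0.13 with TMM (adjusted p = 0.0157) and 1.03 with total counts. In baboon brain against liver it was -1.28 ± 0.13 (adjusted p = 4.62e-08) and 0.16, and in macaque cerebellum against liver -0.88 ± 0.15 (adjusted p = 2.16e-05) and 0.57. In macaque kidney against liver Nfe2l2 was not called, with -0.18 ± 0.15 (adjusted p = 0.306).

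Keap1, the sensor that restrains NRF2, was not called between neural tissue and kidney in either primate. Its level was 97.5 ± 6.68 CPM in baboon brain and 98.5 ± 17.8 in baboon kidney, and the change was -0.03 ± 0.11 (adjusted p = 0.823). In macaque it was at 112 ± 5.55 CPM in cerebellum and 88.6 ± 9.34 in kidney, and all 6 cerebellum libraries (105 to 121 CPM) lay above all 5 kidney libraries (77.4 to 99.1 CPM). The change there was 0.13 ± 0.13 with TMM (adjusted p = 0.384) and was called with total counts at 0.34 (adjusted p = 0.0451). The level in CPM was lower in liver, at 44.3 ± 6.39 CPM in baboon and 49.2 ± 14.1 in macaque, while relative to the typical gene Keap1 was called lower in baboon kidney, baboon brain and macaque kidney than in liver. The change in baboon kidney against liver was -0.27 ± 0.11 (adjusted p = 0.0340) with TMM and 1.15 with total counts, and the call was lost with upper-quartile factors and when any of baboon kidney 2, 3 and 6 or baboon liver 3, 4 and 5 was left out, with adjusted p from 0.0569 to 0.0856 for these 6 libraries. In baboon brain against liver it was -0.30 ± 0.11 (adjusted p = 0.0163) and 1.14, and with RLE factors it was not called (adjusted p = 0.0650). In macaque kidney against liver it was -0.39 ± 0.13 (adjusted p = 0.0169) and 0.85, and with upper-quartile factors it was not called (adjusted p = 0.0838). Macaque cerebellum against liver did not pass, at -0.26 ± 0.13 (adjusted p = 0.0662), and gave 1.18 with total counts. It passed without any 1 of macaque liver 3, 4, 5 and 6, with adjusted p from 0.0316 to 0.0479.

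The ratio of the 2 regulators within a library needs no scaling. Keap1 per Nfe2l2 was 0.901 ± 0.212 in baboon brain, from 0.702 to 1.23, against 0.483 ± 0.105 in kidney and 0.445 ± 0.0883 in liver, and no brain library overlapped the kidney (0.291 to 0.593) or liver (0.314 to 0.553) libraries. In macaque the ratio was 0.863 ± 0.127 in cerebellum and 0.481 ± 0.0557 in kidney, without overlap, and 0.586 ± 0.215 in liver, which overlapped both. Beaver had higher ratios, 2.74 and 2.84 in brain and 1.40 and 1.65 in liver. These ratios describe the relative level of both messages across groups and were not tested.

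Nqo1, the quinone reductase that is often used as a readout of NRF2 activity, separated kidney from the other organs in every species with both. In baboon it ranged from 75.4 to 257 CPM in kidney, with a median of 120, from 12.8 to 37.8 in brain, with a median of 30.8, and from 2.16 to 7.37 in liver, with a median of 6.07. The 3 baboon organs did not overlap. Its change in baboon kidney against liver was 3.23 ± 0.35 (adjusted p = 1.69e-07), and with total counts it was 4.64. In macaque the 5 kidney libraries held 307, 177, 261, 321 and 184 CPM of Nqo1, while liver ranged from 9.51 to 45.7 CPM with a median of 30.4 and cerebellum from 7.46 to 31.5 CPM with a median of 20.01. Kidney lay above all other macaque libraries, and liver and cerebellum overlapped. Nqo1 was higher in macaque kidney than in liver by 1.79 ± 0.33 (adjusted p = 0.000152), or 3.03 with total counts. In the bear, with 1 library each, Nqo1 was at 264 CPM in kidney (95% exact interval 252 to 276, over 1920 read pairs) and at 33.2 CPM in liver (29.2 to 37.6, over 248 read pairs).

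Relative to liver, neural Nqo1 went in different directions in the 2 primates. In baboon brain against liver Nqo1 was the only one of the 10 genes called higher, by 0.86 ± 0.33 (adjusted p = 0.0221), and the call was lost without baboon brain 4 (0.75, adjusted p = 0.0521). In macaque cerebellum against liver Nqo1 was lower by -2.06 ± 0.33 (adjusted p = 1.58e-05), and with total counts the value was -0.62 (adjusted p = 0.0780). The organs differ, brain in one species and cerebellum in the other, so the difference between these values was not tested. In CPM the neural ranges of baboon and macaque overlapped, at 12.8 to 37.8 and 7.46 to 31.5. The liver ranges did not, at 2.16 to 7.37 in baboon and 9.51 to 45.7 in macaque. Against kidney, Nqo1 was lower in both: by -2.37 ± 0.33 in baboon brain (adjusted p = 2.85e-06) and by -3.85 ± 0.36 in macaque cerebellum (adjusted p = 2.17e-08).

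Hmox1, whose product breaks haem down to biliverdin, carbon monoxide and iron, was low in neural tissue. It ranged from 1.51 to 6.19 CPM in baboon brain (median 3.38), from 37.4 to 110 CPM in kidney (median 66.8) and from 34.5 to 185 CPM in liver (median 75.2). All brain libraries lay below all kidney and liver libraries, and kidney and liver overlapped. Its change in baboon brain was -6.07 ± 0.48 against liver (adjusted p = 7.38e-10) and -4.20 ± 0.44 against kidney (adjusted p = 6.70e-08). In macaque, Hmox1 ranged from 2.44 to 3.80 CPM in cerebellum (median 3.12) and from 41.9 to 69.7 CPM in liver (median 62.8), and the 5 kidneys held 123, 65.5, 84.2, 114 and 81.9 CPM. The change in cerebellum was -5.67 ± 0.19 against liver (adjusted p = 1.07e-14) and -5.09 ± 0.18 against kidney (adjusted p = 7.56e-14). Kidney against liver gave -1.86 ± 0.39 in baboon (adjusted p = 0.000338) and -0.58 ± 0.16 in macaque (adjusted p = 0.00370). The baboon value was -0.43 and not called with total counts (adjusted p = 0.269), and the macaque value turned to 0.66. The bear kidney held the highest Hmox1 level of the series, 367 CPM (353 to 381, over 2664 read pairs), against 68.9 CPM in the bear liver (63.2 to 75.2).

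**Figure D2:**
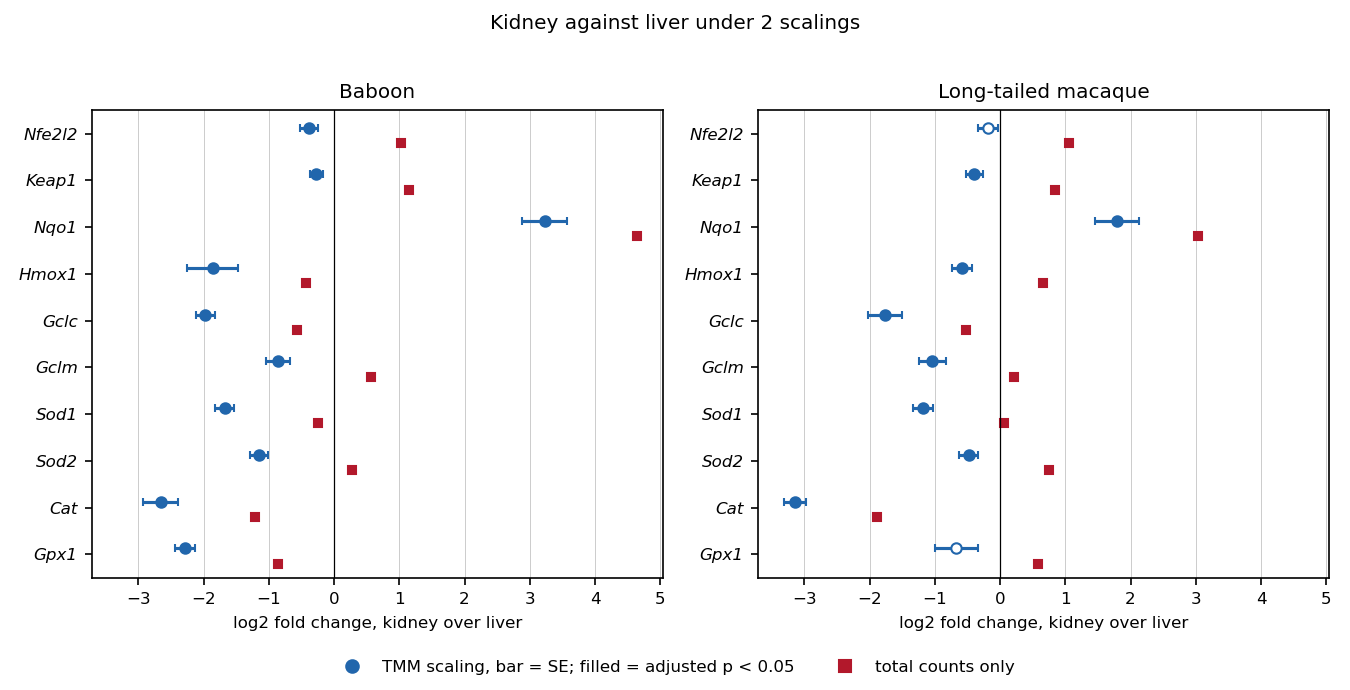
Log2 fold change of the 10 genes in kidney over liver, for baboon (left) and long-tailed macaque (right). Blue circles are TMM values with the standard error, filled where the adjusted p is under 0.05, and red squares are the values with total counts as the only scaling. Nqo1 lies right of 0 and Cat left of 0 in both species under both scalings, and Nfe2l2, Keap1, Gclm and Sod2 change side in both.

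The subunits of glutamate-cysteine ligase were both lower in neural tissue and kidney than in liver relative to the typical gene. Between neural tissue and kidney Gclm was called lower in both primates and Gclc in macaque, and the difference between the subunits was not tested. Gclc, the catalytic subunit, was at 101 ± 15.4 CPM in baboon liver, 68.2 ± 12.5 in kidney and 77.1 ± 15.7 in brain. Gclm, the modifier subunit, was at 24.8 ± 7.18 CPM in liver, 36.7 ± 5.48 in kidney and 15.6 ± 1.95 in brain. In baboon kidney against liver Gclc changed by -1.97 ± 0.15 (adjusted p = 1.18e-09), also called with total counts, and Gclm by -0.86 ± 0.18 (adjusted p = 0.000333), which turned to 0.56 with total counts. In baboon brain against kidney Gclc did not pass the test, at 0.15 ± 0.14 (adjusted p = 0.353), while Gclm fell by 1.26 on the log2 scale (SE 0.18, adjusted p = 4.02e-06).

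Macaque gave similar levels of both subunits. Gclc was at 105 ± 45.0 CPM in liver, 73.4 ± 14.9 in kidney and 54.5 ± 6.13 in cerebellum, and Gclm at 30.5 ± 11.4, 35.2 ± 5.93 and 16.8 ± 2.74 CPM. The macaque liver libraries were spread widely for Gclc, from 51.2 to 152 CPM, with libraries 1 and 2 at 54.1 and 51.2 and the other 4 at 97.0 or above. Gclc in macaque kidney against liver was -1.76 ± 0.26 (adjusted p = 1.43e-05), or -0.52 and not called with total counts (adjusted p = 0.0594), and Gclm was -1.04 ± 0.21 (adjusted p = 0.000400), which turned to 0.21 with total counts. In cerebellum against kidney Gclc was -0.65 ± 0.25 (adjusted p = 0.0274), a call that was lost without macaque kidney 2, kidney 3 or cerebellum 3, with adjusted p from 0.0539 to 0.0801, and Gclm was -1.28 ± 0.21 (adjusted p = 2.77e-05). Within libraries, Gclm per Gclc was 0.547 ± 0.0907 in baboon kidney, above all baboon brain (0.144 to 0.265) and liver (0.153 to 0.362) libraries. In macaque the ratio was 0.487 ± 0.0788 in kidney, above all cerebellum libraries (0.252 to 0.344), and the liver libraries ranged from 0.155 to 0.622 and overlapped both.

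Both superoxide dismutases were lower in primate neural tissue than in kidney and liver, by less than Cat and Gpx1 were. Sod1 was at 754 ± 141 CPM in baboon liver, 635 ± 79.2 in kidney and 426 ± 22.0 in brain, and at 707 ± 153, 738 ± 43.8 and 396 ± 33.2 CPM in macaque liver, kidney and cerebellum. All neural libraries of both primates, 344 to 453 CPM, lay below all kidney and liver libraries, 507 to 962 CPM. Sod2 was at 154 ± 30.2 CPM in baboon liver, 186 ± 17.3 in kidney and 102 ± 12.8 in brain, and at 127 ± 29.8, 214 ± 41.4 and 93.9 ± 7.26 CPM in macaque liver, kidney and cerebellum.

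Both dismutases were lower in neural tissue under every scaling tried. Against liver, Sod1 changed by -2.28 ± 0.15 in baboon brain (adjusted p = 5.88e-11) and -2.29 ± 0.14 in macaque cerebellum (adjusted p = 6.09e-11), and Sod2 by -2.04 ± 0.14 (adjusted p = 9.32e-11) and -1.88 ± 0.14 (adjusted p = 7.70e-10). Against kidney the changes were smaller, -0.60 ± 0.14 and -1.11 ± 0.14 for Sod1 and -0.89 ± 0.14 and -1.40 ± 0.14 for Sod2, with adjusted p of at most 0.000972. In kidney against liver Sod1 was -1.68 ± 0.15 in baboon and -1.18 ± 0.15 in macaque, and Sod2 was -1.15 ± 0.14 and -0.48 ± 0.14. With total counts these became -0.25, 0.06, 0.28 and 0.75. Within libraries, Sod2 per Sod1 was 0.297 ± 0.0380 in baboon kidney, and its 6 values (0.249 to 0.327) lay above all 6 liver values (0.161 to 0.239). In macaque, kidney (0.215 to 0.350) and liver (0.111 to 0.242) overlapped. The bear kidney, at 0.224, lay below the bear liver, at 0.238.

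Catalase had the largest change of the 10 genes between neural tissue and liver in baboon, macaque and beaver. Cat ranged from 1386 to 3657 CPM in baboon liver (median 2953), from 1025 to 1400 CPM in kidney (median 1109) and from 20.3 to 44.8 CPM in brain (median 26.1). In macaque it ranged from 3064 to 5109 CPM in liver (median 3942) and from 24.0 to 35.4 CPM in cerebellum (median 28.3), and the 5 kidneys held 1175, 860, 1196, 1127 and 1084 CPM. Liver, kidney and neural tissue did not overlap in macaque, and in baboon the lowest liver overlapped the highest kidney. Cat changed by -7.95 ± 0.34 in baboon brain (adjusted p = 1.17e-13) and by -8.57 ± 0.20 in macaque cerebellum (adjusted p = 4.64e-16) against liver, and by -5.29 ± 0.30 (adjusted p = 1.05e-11) and -5.43 ± 0.18 (adjusted p = 2.89e-14) against kidney. In kidney against liver it changed by -2.66 ± 0.27 in baboon (adjusted p = 6.36e-08) and -3.14 ± 0.17 in macaque (adjusted p = 3.17e-11), and these were -1.22 and -1.89 with total counts, still called.

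Gpx1, which reduces hydrogen peroxide at the expense of glutathione, followed catalase in baboon. It ranged from 1029 to 1672 CPM in liver (median 1303), from 633 to 797 CPM in kidney (median 758) and from 60.9 to 90.0 CPM in brain (median 67.7), and the 3 organs did not overlap. Its change against liver was -2.28 ± 0.15 in kidney (adjusted p = 2.12e-10) and -5.70 ± 0.18 in brain (adjusted p = 2.81e-15). In macaque the 5 kidneys held 340, 455, 808, 1681 and 547 CPM of Gpx1, and library 5 stood apart from the others. The macaque livers ranged from 270 to 656 CPM (median 544) and overlapped the kidneys, and the cerebellum ranged from 9.06 to 21.8 CPM (median 16.2). Gpx1 in macaque kidney against liver was not called, at -0.67 ± 0.33 (adjusted p = 0.0861). With the replicate number as a block, which pairs kidney and liver of the same number, it was -0.76 ± 0.25 and passed (adjusted p = 0.0167), without macaque kidney 5 it was -1.15 (adjusted p = 0.00163), and with total counts it was 0.58 and not called (adjusted p = 0.115). In cerebellum the change was -6.44 ± 0.40 against liver (adjusted p = 4.48e-11) and -5.77 ± 0.39 against kidney (adjusted p = 2.57e-10).

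Baboon and macaque, the 2 species with 5 or 6 libraries per organ, differed in Nqo1 in liver and kidney and in Gpx1 in liver, and the share of the 10 genes called was near or below that of all genes. In liver, 24.8% of 11948 genes were called and 2 of the 10: Nqo1, lower in baboon by -2.30 ± 0.34 (adjusted p = 0.000368), and Gpx1, higher in baboon by 1.52 ± 0.20 (adjusted p = 0.000165). The fit of all 48 libraries called 4 of the 10 in liver, and it also called more genes in all. All 6 baboon livers lay below all 6 macaque livers for Nqo1 and above them for Gpx1. In kidney, 30.9% of 13082 genes were called and 1 of the 10, Nqo1, lower in baboon by -0.87 ± 0.29 (adjusted p = 0.0408). The kidney ranges of Nqo1 overlapped, and the call was lost when any of baboon kidney 2, 4, 5 and 6 or macaque kidney 1, 3 and 5 was left out, with adjusted p from 0.0702 to 0.0899.

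An interaction term tested whether the kidney-liver difference itself differed between the species. It was called for 10% of 13600 genes and for 1 of the 10, Gpx1, with a difference of -1.60 ± 0.40 (adjusted p = 0.0117), baboon minus macaque. Gpx1 kept this call in each of 23 fits that left out a library, from -1.78 to -1.12. Values near the threshold were 1.46 ± 0.47 for Nqo1 (adjusted p = 0.0522), -0.65 ± 0.23 for Sod2 (adjusted p = 0.0719) and -1.27 ± 0.45 for Hmox1 (adjusted p = 0.0810), and all 3 passed with DESeq2, at adjusted p of 0.0250, 0.0360 and 0.0436. The other 6 genes had an adjusted p of 0.223 or above, with differences between -0.48 and 0.49.

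Beaver brain and liver repeated the low neural levels of most genes, with Gpx1 as the exception. Catalase was at 94.0 and 107 CPM in the 2 brains and at 8249 and 7779 CPM in the 2 livers, a change of -7.69 ± 0.23 (adjusted p = 7.11e-05). Hmox1 was at 6.76 and 7.08 CPM in brain and at 30.6 and 46.8 CPM in liver, a change of -3.86 ± 0.29 (adjusted p = 0.000390). Gclc, Gclm, Sod1 and Sod2 were lower in beaver brain by -2.06, -2.73, -2.91 and -1.99, with adjusted p from 0.000170 to 0.000409. Gpx1 was higher in brain, at 93.8 and 141 CPM against 18.2 and 27.0 CPM in liver, and the change was 1.00 ± 0.30 (adjusted p = 0.0373) with TMM and 2.37 with total counts. That call was lost without beaver brain 1 (1.26, adjusted p = 0.0560), brain 2 (0.69, adjusted p = 0.189) or liver 1 (0.71, adjusted p = 0.0960). Nfe2l2, Keap1 and Nqo1 were lower in brain with TMM, by -1.70, -0.83 and -1.08, and stood at -0.32, 0.54 and 0.29 with total counts. The calls of Keap1 and Nqo1 were lost without either brain library, with adjusted p from 0.0771 to 0.153.

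**Figure D3:**
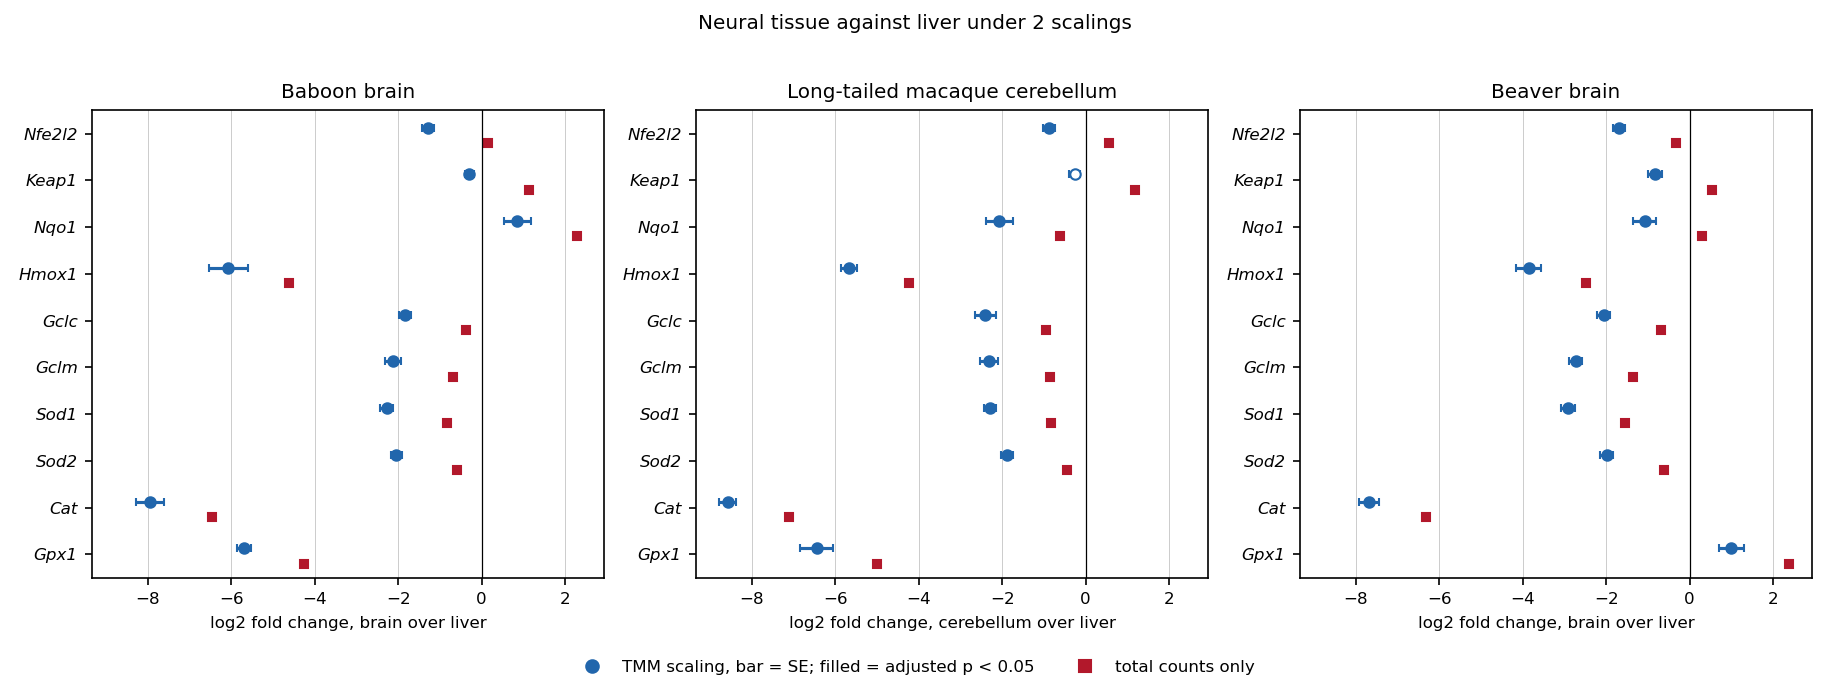
Log2 fold change of the 10 genes in neural tissue over liver for baboon brain, long-tailed macaque cerebellum and beaver brain. Blue circles are TMM values with the standard error, filled where the adjusted p is under 0.05, and red squares are the values with total counts as the only scaling. Cat lies at -7.95, -8.57 and -7.69 in the 3 panels, and Gpx1 at -5.70 and -6.44 in the primates but at 1.00 in beaver.

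The brain-liver difference was then compared between beaver and baboon in a single fit of 16 libraries, a comparison chosen after the beaver values of Gpx1 had been seen. Its interaction term was called for 39.6% of 14504 genes and for 4 of the 10. Gpx1 gave 6.67 ± 0.39 (adjusted p = 1.77e-08), beaver minus baboon, and remained between 6.34 and 7.01 in the 16 fits that left out a library. Hmox1 gave 2.19 ± 0.76 (adjusted p = 0.0311), Nqo1 -1.95 ± 0.58 (adjusted p = 0.0137) and Keap1 -0.55 ± 0.20 (adjusted p = 0.0373). These 3 calls depended on single libraries. Hmox1 was lost without any 1 of the 4 beaver libraries (adjusted p from 0.0535 to 0.135) and with the replicate number as a block (2.13, adjusted p = 0.0509), Keap1 without baboon liver 6, beaver liver 1 or either beaver brain (adjusted p from 0.0513 to 0.216), and Nqo1 without beaver brain 2 (adjusted p = 0.0614). Cat did not pass, with 0.24 ± 0.54 (adjusted p = 0.787).

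In brain itself, 53.0% of 14484 genes were called between beaver and baboon and 6 of the 10. Keap1 was higher in beaver brain, at 199 and 193 CPM against 88.1 to 107 CPM in baboon (0.89 ± 0.10, adjusted p = 8.09e-05), and so was Cat, at 94.0 and 107 CPM against 20.3 to 44.8 CPM (1.64 ± 0.25, adjusted p = 0.000441). Nqo1 was lower, at 6.63 and 5.90 CPM against 12.8 to 37.8 CPM (-2.27 ± 0.41, adjusted p = 0.00127), and Sod1 was lower, at 330 and 288 CPM against 386 to 453 CPM (-0.58 ± 0.11, adjusted p = 0.00141). The beaver and baboon brain ranges did not overlap for these genes. Neither did they for Nfe2l2 (70.0 to 70.3 against 74.6 to 141 CPM) and Gpx1 (93.8 to 141 against 60.9 to 90.0 CPM). The share of all genes without overlap was not counted. Nfe2l2 (-0.80 ± 0.21, adjusted p = 0.0102) lost its call without either beaver brain, with adjusted p of 0.0640 and 0.0696, and Gpx1 (0.62 ± 0.17, adjusted p = 0.0121) without beaver brain 2 (0.32, adjusted p = 0.239).

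Among the 21 livers of 8 species, the 10 genes split in CPM into those held within a narrow range and those that differed widely. CPM uses total counts only, and the liver TMM factors ran from 0.486 in the white-footed mouse to 1.59 in the bat. The spans below therefore depend on the scale, and they were not taken on the TMM scale. On that scale the joint test below called Nfe2l2, Sod1 and Sod2 different among the livers. Sod2, Sod1 and Nfe2l2 spanned 1.71-fold, 2.11-fold and 2.50-fold between the lowest and the highest species mean in CPM. The SD of log2(CPM + 1) over the 8 species means was 0.26 for Sod2, 0.35 for Sod1 and 0.39 for Nfe2l2, at percentiles 0.14, 0.96 and 1.6 of 4999 genes with a mean liver level of at least 20 CPM, whose median SD was 1.09. Hmox1, Gclc and Gclm spanned 6.77-fold, 8.49-fold and 8.72-fold, and Keap1 16.5-fold, or 3.96-fold without the white-footed mouse. Nqo1 spanned 59.7-fold, Cat 122-fold and Gpx1 186-fold, with SDs at percentiles 85.0, 92.1 and 96.8. Without the white-footed mouse Cat spanned 6.21-fold, and Gpx1 still spanned 186-fold.

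The joint test for any difference among the 8 livers called 93.9% of 14371 genes and 9 of the 10, all but Gclc (adjusted p = 0.373). With total counts Sod1 (adjusted p = 0.183) and Sod2 (adjusted p = 0.287) were not called and Gclc was (adjusted p = 0.0102). Sod1 and Sod2 were also not called without the white-footed mouse liver (adjusted p = 0.331 and 0.0850). Its adjusted p was 1.37e-10 for Gpx1, 5.77e-07 for Nqo1 and 1.90e-05 for Cat. Within the 3 species of the primate center the adjusted p was 3.85e-09, 9.70e-06 and 0.00433, and within the 5 species of the earlier collection it was 1.35e-09, 0.000142 and 2.74e-05. Nfe2l2, Sod1 and Sod2 were not called within the primate center collection (adjusted p = 0.158, 0.433 and 0.0841). The sources used here leave out how a read of another species came to count for a mouse ID, so a difference between species in the RNA level and in the gene sequence that was counted cannot be told apart. Sod1 and Gpx1 are known for near-identical processed copies in primate genomes, and whether reads were shared with copies was not tested.

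Gpx1 gave the widest spread among livers. It was at 1491 CPM in the tube-nosed bat (95% exact interval 1454 to 1527, 6440 read pairs), 1421 in the white-footed mouse (1392 to 1450, 9109 read pairs), 1334 ± 218 in baboon, 530 and 600 in the sugar gliders and 511 ± 140 in macaque. Below these lay the bear at 70.3 CPM (64.5 to 76.6, 526 read pairs), the beavers at 18.2 and 27.0 CPM and the chipmunks at 9.08 and 6.95 CPM. The gap between the lowest macaque liver, 270 CPM, and the bear divided the 8 species into 5 with high and 3 with low Gpx1. The 3 species with low liver Gpx1 are from 2 collections, and the bear kidney held 512 CPM (496 to 529) and the beaver brains 93.8 and 141 CPM, above the livers of the same species. Each bear organ is 1 library, and the cause of the low liver values was not tested.

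Each species' liver was then set against the mean of the other 7 species on the log scale. The median change of all genes was 0.32 for baboon, 0.30 for macaque, 0.15 for beaver and 0.13 for chipmunk. It was 0.08 for bear, 0.04 for bat, -0.10 for sugar glider and -0.65 for white-footed mouse. The changes of the 10 genes are therefore not relative to a typical gene at no change. The bear, bat and mouse livers are 1 library each, whose own spread is unknown. Their calls assume that they vary like the other species and say how far that library lay from the other livers, not what the species shows. Chipmunk, with 42.1% of genes called, had 4 of the 10 called: Gpx1 at -5.87 ± 0.39 (adjusted p = 5.89e-09), Hmox1 at -2.35 ± 0.49 (adjusted p = 0.000925), Nqo1 at 2.15 ± 0.35 (adjusted p = 9.18e-05) and Cat at 1.12 ± 0.30 (adjusted p = 0.00596). The Cat call was lost without chipmunk liver 1 (0.66, adjusted p = 0.252) and without the mouse liver (0.49, adjusted p = 0.243). Beaver, with 44.4% called, had 5: Gpx1 at -3.96 ± 0.35 (adjusted p = 1.16e-07), Cat at 2.08 ± 0.28 (adjusted p = 1.49e-05), Nqo1 at -1.96 ± 0.47 (adjusted p = 0.00264), Keap1 at 1.04 ± 0.19 (adjusted p = 0.000259) and Gclm at 0.90 ± 0.29 (adjusted p = 0.0174), which was lost without either beaver liver (adjusted p = 0.108 and 0.0932). The 2 chipmunk livers agreed closely for Nqo1, at 68.7 and 69.6 CPM, and the 2 beaver livers held 5.37 and 4.88 CPM.

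The primates had 4 calls each, with 58.2% of genes called for baboon and 54.3% for macaque. Keap1 was lower in both, by -0.62 ± 0.14 in baboon (adjusted p = 0.00106) and -0.59 ± 0.14 in macaque (adjusted p = 0.00188), and Gpx1 was higher in both, by 2.94 ± 0.18 (adjusted p = 5.33e-10) and 1.20 ± 0.17 (adjusted p = 1.17e-05). Nqo1 was lower in baboon, by -1.61 ± 0.30 (adjusted p = 0.000175), and higher in macaque, by 1.01 ± 0.27 (adjusted p = 0.00410). Baboon was also higher for Hmox1, by 1.14 ± 0.27 (adjusted p = 0.00136), and macaque for Cat, by 0.99 ± 0.21 (adjusted p = 0.000844). The macaque call for Cat was lost without the mouse liver (0.32, adjusted p = 0.236) and within the collection (-0.25, adjusted p = 0.453).

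The bat and bear livers and the sugar glider livers had 5 calls each. The tube-nosed bat library, with 43.4% of genes called, had 5 called, led by Nqo1 at -5.12 ± 0.88 (adjusted p = 0.000144), where the liver held 1.16 CPM from 5 read pairs (95% exact interval 0.376 to 2.70), and by Gpx1 at 2.23 ± 0.28 (adjusted p = 6.17e-06). Its Nfe2l2 (-1.43) and Cat (-1.64) were called lower with TMM and not with total counts, and Keap1 (0.77) was called higher but not without the mouse liver (0.50, adjusted p = 0.149). The bear library, with 30.2% called, had 5: Nfe2l2 at 1.31 ± 0.25 (adjusted p = 0.000592), Nqo1 at 1.64 ± 0.47, Keap1 at 0.72 ± 0.26, Gclm at -2.09 ± 0.52 (adjusted p = 0.00545) and Gpx1 at -1.58 ± 0.40 (adjusted p = 0.00660), of which Nqo1 and Keap1 were not called with total counts. Bear Keap1 also lost its call without beaver liver 2 or either chipmunk liver or sugar glider liver 1, with adjusted p from 0.0523 to 0.0647. Gclm was low in both bear organs, at 6.82 CPM in liver (5.08 to 8.97, 51 read pairs) and 6.88 CPM in kidney (5.11 to 9.07, 50 read pairs). Sugar glider, with 50.8% called, had 5: Nqo1 (1.20), Gpx1 (0.93) and Cat (0.80) higher and Nfe2l2 (-0.67) and Sod1 (-0.66) lower. Nqo1 and Gpx1 held under all 4 other scalings and tools. With total counts Nfe2l2 and Sod1 were both at -0.17 and not called (adjusted p = 0.585 and 0.648), and Cat was not called with RLE (adjusted p = 0.0553) or upper-quartile factors (adjusted p = 0.0645). Without the white-footed mouse liver Cat (0.14, adjusted p = 0.825), Nfe2l2 (-0.49, adjusted p = 0.0733) and Sod1 (-0.42, adjusted p = 0.199) were not called. Of these 5, 2 remained without sugar glider liver 1, 1 without sugar glider liver 2 and 3 without beaver liver 1.

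The white-footed mouse libraries stood apart in several genes and in scale. The liver, with 53.9% of genes called, had 8 of the 10 called, and the median change of the 10 was 1.45 against -0.65 for all genes. Cat was at 65.6 CPM (59.4 to 72.1, 420 read pairs), below the 1290 CPM of the next lowest species, and its change was -4.60 ± 0.65 (adjusted p = 1.03e-05). Keap1 was at 10.6 CPM (8.23 to 13.4, 68 read pairs), with -1.90 ± 0.34 (adjusted p = 0.000121), and Gpx1 gave 4.10 ± 0.25 (adjusted p = 3.07e-10) and Nqo1 2.69 ± 0.43 (adjusted p = 3.88e-05). Nfe2l2, Gclm, Sod1 and Sod2 were called higher, by 1.41, 1.49, 1.80 and 1.77. With total counts they stood at 0.26, 0.32, 0.64 and 0.61 and were not called. The TMM factor of this liver was 0.486, against 0.752 to 1.59 over the other species' means, and total counts leave this factor out. These 4 calls thus depended on the factor, and which scale suits this liver better was not tested. In the mouse brain, the shallowest library, Nfe2l2 was at 5.22 CPM (2.89 to 8.21, 16 read pairs), Gclc at 12.0 (8.50 to 16.5), Gclm at 4.11 (2.19 to 7.03) and Sod2 at 13.3 (9.57 to 17.9), each below every other brain and cerebellum library. Keap1 at 98.2 CPM lay within the baboon brain range, and Sod1 at 785 CPM and Gpx1 at 244 CPM lay above all other neural libraries. The TMM factor of this brain was 0.361, against 1.11 and 1.21 for the baboon and beaver means.

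**Figure D4:**
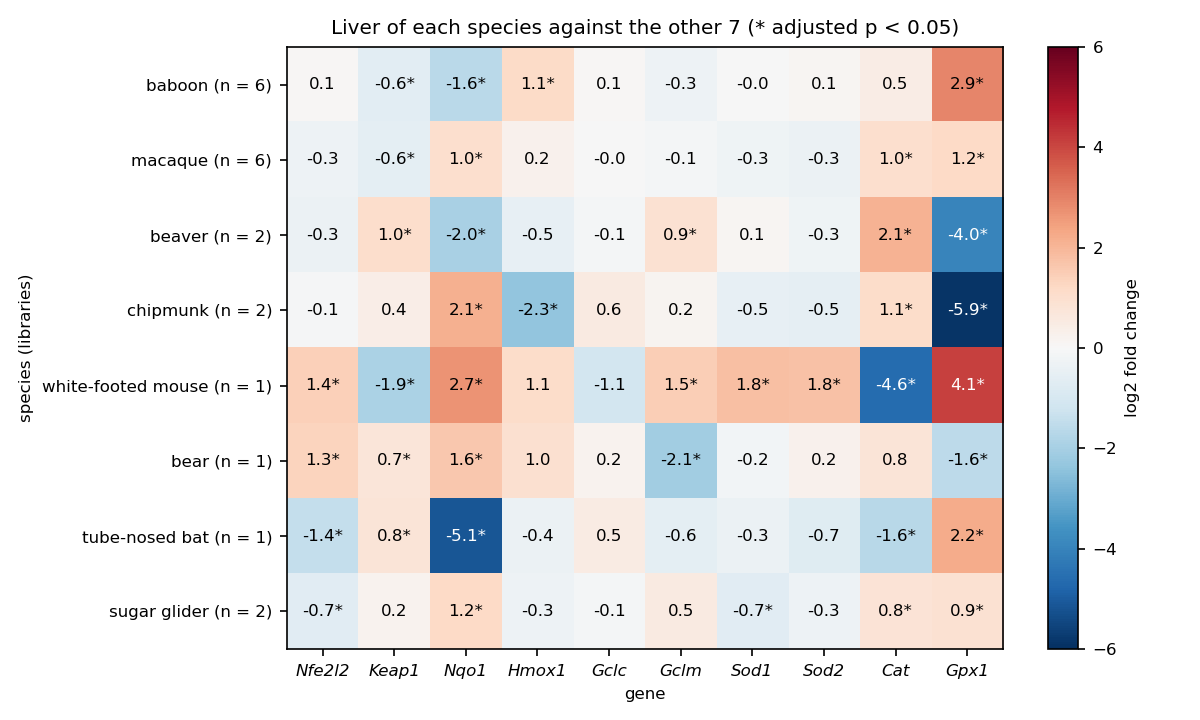
Log2 fold change of each of the 10 genes (columns) in the liver of each species (rows, with the number of libraries) against the other 7 species, TMM scale, with red for higher and blue for lower and a star for an adjusted p under 0.05. Gpx1 is called in all 8 rows, from -5.87 in chipmunk to 4.10 in the white-footed mouse, and Gclc in none.

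The relation of catalase to glutathione peroxidase 1 within a library, which needs no scaling, varied more between the livers of 8 species than between the kidneys of 3 species or the neural tissues of 4. Cat per Gpx1 was 1.97 ± 0.562 in baboon liver, 8.44 ± 2.79 in macaque liver and 8.35 and 8.42 in the sugar glider livers. It was 38.2 in the bear liver, 288 and 454 in the beaver livers and 483 and 758 in the chipmunk livers, and it was 0.866 in the bat liver and 0.0462 in the white-footed mouse liver. Outside liver the ratio stayed between 0.153 in the mouse brain and 3.46 in a macaque kidney. Bear kidney was at 1.89, close to the kidney means of 1.55 ± 0.119 in baboon and 1.90 ± 1.02 in macaque, and the beaver brains were at 0.764 and 1.00. A ratio between genes of unequal length does not say which message was more abundant, and only its differences between groups are described. Over the 8 species means of liver, log2 levels of Cat and Gpx1 had a Pearson r of -0.553 and a Spearman rho of -0.857, a description over points that share the liver libraries and their totals.

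**Figure D5:**
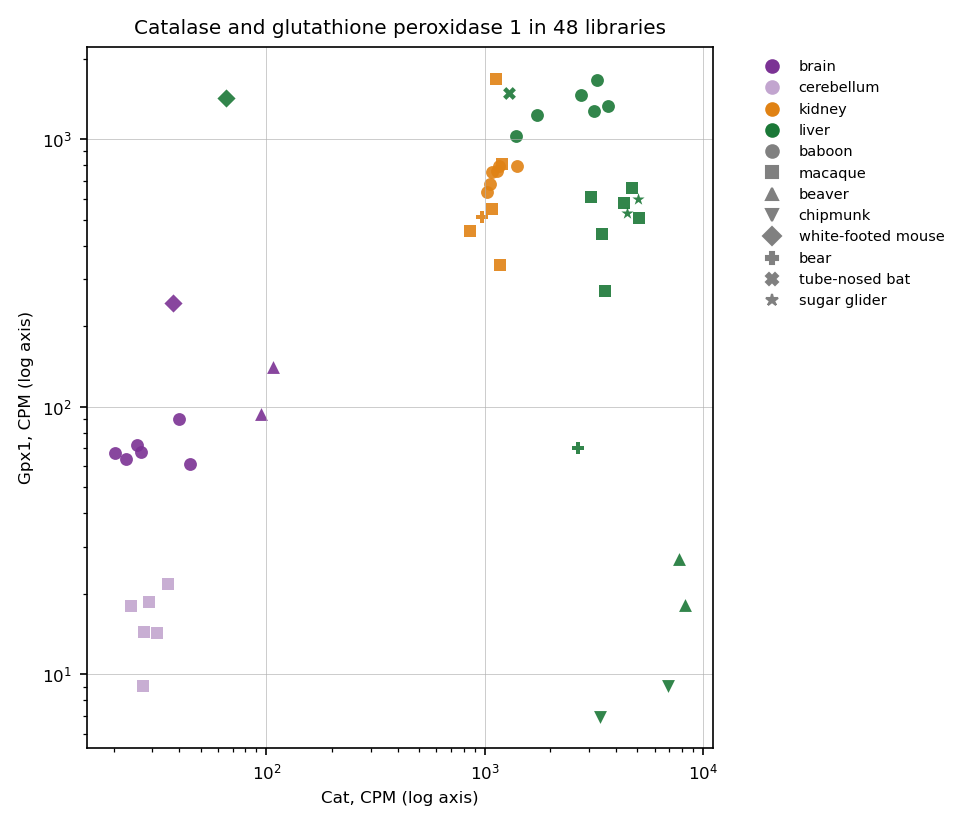
Gpx1 (vertical) against Cat (horizontal) in all 48 libraries, both in CPM on log axes, with colour for organ and shape for species. Neural libraries lie at the left, at most 107 CPM of Cat. The livers spread from the white-footed mouse (65.6 and 1421 CPM) at the upper left to the beavers and chipmunks at the lower right, where Gpx1 is at most 27.0 CPM.

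Across the 15 groups, the pair of the 10 genes with the closest pattern in log2 group means was Nfe2l2 and Sod2, with a Pearson r of 0.905 and a Spearman rho of 0.539. Without the 2 white-footed mouse groups this pair had 0.493 and 0.434, and the closest was Hmox1 and Sod2, with 0.880 and 0.813, followed by Nfe2l2 and Nqo1, with 0.817 and 0.802. Gclc and Gclm had 0.591 and 0.536 over the 15 groups, and Nfe2l2 and Keap1 had -0.084 and -0.271. These values are descriptions, as groups of a species share a collection and groups of an organ share its cell types.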

How the data were processed

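The data were raw read counts per gene in 48 libraries, deposited by the authors with mouse Ensembl gene IDs as rows. The submitters' processing notes name STAR and featureCounts. Versions, builds, the strand setting and the assignment of other species' reads to mouse IDs: not given in the sources used here. Per the labels' protocols, RNA came from organs frozen on dry ice. Low counts were mostly even, in 94.3% to 99.4% of cases per library, so the 95% interval of a single library is the exact Clopper-Pearson one, with 2 counts taken as a read pair, and covers counting error only. No count of the 10 genes was at or below 3 read pairs.

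Counts were tested with edgeR 4.0.16 in R 4.3.3 (TMM factors, filterByExpr, two-sided quasi-likelihood F test, Benjamini-Hochberg adjustment over all genes tested, threshold 0.05). The 3 organs of baboon and of macaque, the 4 beaver libraries, the 21 livers and each pair of species were fitted separately. DESeq2 1.42.0, RLE and upper-quartile factors, total counts, no filter, a fit of all 48 libraries, a replicate block and leaving out each library were alternatives. The scripts were tested on simulated data. Same-numbered libraries deviated together for macaque kidney and liver (r from 0.185 to 0.228) and for macaque cerebellum and kidney (0.115 to 0.144). The numbers may therefore pair those libraries, a pairing read from the data and not given by the labels. The main tests did not use it. No 2 libraries of a group agreed within sampling noise (89 pairs).

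The 10 genes are always named. The lists of other pathway genes and of cell type markers are written as symbols, 0 rows of the reference carry a mouse Ensembl ID, and these lists were not used here. The genes and lists were chosen with earlier results of these data known.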

Additional observations from a re-analysis of the deposited data

Results flagged for a closer look

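Of 60 groups of 4 to 6 libraries examined for a value far from the others, 3 held one, and chance gives about 1 in 20. Catalase in baboon kidney 1 was at 1400 CPM, above the next highest, 1164 CPM. Gpx1 in baboon brain 6 was at 90.0 CPM, above the next highest, 71.7 CPM. Nqo1 in baboon liver 2 was at 2.16 CPM, below the next lowest, 5.52 CPM.

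The kidney-liver difference of Gpx1 differed between baboon and macaque by -1.60 on the log2 scale (adjusted p = 0.0117, edgeR). The brain-liver difference differed between beaver and baboon for Gpx1 by 6.67 (adjusted p = 1.77e-08), Hmox1 by 2.19 (adjusted p = 0.0311), Nqo1 by -1.95 (adjusted p = 0.0137) and Keap1 by -0.55 (adjusted p = 0.0373), in a comparison chosen after the data were seen.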

How the results depend on the processing

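Of the values called under some setting, total counts in place of TMM reversed the following, and the moved median of all genes goes with them. Sign changes of values never called, such as Sod1 in the bat liver from -0.34 to 0.46, are not listed. In kidney against liver they became 1.03 (Nfe2l2), 1.15 (Keap1), 0.56 (Gclm) and 0.28 (Sod2) in baboon, and 1.06 (Nfe2l2), 0.85 (Keap1), 0.66 (Hmox1), 0.21 (Gclm), 0.062 (Sod1), 0.75 (Sod2) and 0.58 (Gpx1) in macaque. Against liver, baboon brain gave 0.16 (Nfe2l2) and 1.14 (Keap1), macaque cerebellum 0.57 (Nfe2l2) and 1.18 (Keap1), and beaver brain 0.54 (Keap1) and 0.29 (Nqo1). Among livers, Sod2 in bat gave 0.070 and Hmox1 in white-footed mouse -0.034. The number of the 10 genes called moved to 2 for the baboon-macaque interaction, 3 for bear and 5 for white-footed mouse. The share of called genes that were higher moved from 49.6% to 33.4% for baboon against macaque liver, from 49.5% to 60.2% for kidney, from 52.0% to 72.5% for their interaction, from 67.7% to 42.5% for bear, from 66.3% to 79.8% for chipmunk, from 56.5% to 73.4% for sugar glider, from 60.1% to 85.2% for bat and from 49.0% to 23.9% for white-footed mouse. DESeq2 called 4 of the 10 for the baboon-macaque interaction. The fit of all 48 libraries called 4 for that interaction and 4 for baboon against macaque liver, where it called 4969 genes. The share of all genes that DESeq2 and the fit of all 48 libraries called for the interaction is not given here. These counts can therefore not be read as a result about the 10 genes. The cause of the higher counts was not tested.

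Leaving out 1 library moved the number called among the 10 to between 0 and 1 for baboon against macaque kidney, between 1 and 3 for the baboon-macaque interaction, between 1 and 4 for sugar glider and between 1 and 5 for the beaver-baboon interaction, and all genes called for beaver brain against liver to between 5519 and 8529, with 5519 and 5522 without beaver brain 1 and 2. All genes called without 1 library ranged from 3498 to 3858 for baboon against macaque kidney and from 1146 to 1423 for the baboon-macaque interaction. Within its collection, an alternative chosen after seeing the data, Cat was reversed to -0.94 for baboon and -0.25 for macaque, and the joint test within the primate center called 8658 genes. For a species against the other livers of its collection, 3 further calls were lost and 5 gained, and not each is named here. Without the white-footed mouse liver, likewise chosen later, Cat was -0.20 for baboon and Keap1 -0.094 for sugar glider, and 3 of the 10 were called for bear and 3 for sugar glider. In all, 10 calls were lost without that liver and 2 gained, and not each is named here. The replicate block changed the calls of Gpx1 in macaque kidney against liver (-0.76) and of Hmox1 in the beaver-baboon interaction (2.13), and no other of those fitted with it. In other primate organ pairs, same-numbered libraries correlated best in 6 of 6 cases for baboon brain and liver, baboon kidney and liver and macaque cerebellum and liver. They did so in 5 of 6 for baboon brain and kidney. For baboon kidney and liver r ran from 0.0646 to 0.252. As for macaque kidney, this is a hint of pairing from the data only. Over all settings, 739 of the counts stayed within 1.5 times and 33 moved, and of the values of single genes 2727 kept direction and call, 72 gained a call, 103 lost it and 23 reversed. For 52 values never called under any setting no such verdict was drawn. Depth limits the low levels most, such as Nqo1 in the bat liver with 5 read pairs.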
